A study of Rattus norvegicus with 12 samples.

Results

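The miRNAs described here are miR-204, miR-211 and miR-448, both arms of each, which are best known in the brain from the choroid plexus. They were taken by name from the small RNA counts of rat hippocampus, and 6 of the 753 mature miRNAs listed belong to them: rno-miR-204-5p, rno-miR-204-3p, rno-miR-211-5p, rno-miR-211-3p, rno-miR-448-3p and rno-miR-448-5p. In Experiment 3, male Sprague Dawley rats in early adulthood (P70 to P80) received ethanol (4 g/kg) or vehicle, and the hippocampus was collected 3 h later. Libraries from 4 vehicle rats and 8 ethanol rats were analysed, each made from 1 rat, and a rat is given here by its group and number. No allele or transgene was used, and injection, sex, strain and time were common to both groups. The labels describe the tissue as right hippocampus and the paper as dorsal hippocampus, and the study describes 8 rats per group, so the remaining vehicle rats were not analysed here.

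A miRNA is cut from a hairpin precursor, and 1 strand of the duplex, the guide, is loaded into an Argonaute protein, while the other strand, the passenger, is mostly degraded. The guide finds its target mRNAs mainly through its seed, the bases 2 to 8 from its 5′ end. The choroid plexus is the epithelium in the brain ventricles that makes cerebrospinal fluid, and a sheet of it lies against the hippocampus in the lateral ventricle. MiR-204 and miR-211 are abundant there and in the retinal pigment epithelium. The choroid plexus is also the brain tissue richest in the serotonin receptor transcript Htr2c, and miR-448 is encoded inside that gene. RefSeq places Mir204 inside the cation channel gene Trpm3 and Mir211 inside its relative Trpm1, both on chromosome 1, and Mir448 inside Htr2c on chromosome X (assembly GRCr8). The counts were made on the older build rn5, so no coordinates are given.

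The mature sequences of all 6 arms were found in RefSeq (GRCr8) and are shown 5′ to 3′ with the seed in capitals, because the seeds decide how the 3 miRNAs are grouped.
rno-miR-204-5p: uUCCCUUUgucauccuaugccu
rno-miR-211-5p: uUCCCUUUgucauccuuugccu
rno-miR-448-3p: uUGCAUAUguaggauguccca
rno-miR-204-3p: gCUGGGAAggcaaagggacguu
rno-miR-211-3p: gGCAAGGAcagcaaaggggg
rno-miR-448-5p: aACAUCCUgcauagugcugcca
The guides rno-miR-204-5p and rno-miR-211-5p were the same at 21 of 22 bases and differed by the substitution A17U, with positions counted from the 5′ end and the miR-204-5p base first. Their seeds were identical. The seed of rno-miR-448-3p was unrelated, although its bases 2 to 7 recur in rno-miR-153-3p (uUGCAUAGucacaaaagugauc). Among the 688 listed miRNAs with a mature sequence in RefSeq, the only pair with identical bases 2 to 8 that involved these 6 arms was miR-204-5p with miR-211-5p.

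Total counts ranged from 2243413 to 4917928 over the vehicle libraries and from 1960704 to 3598771 over the ethanol libraries. Levels are given as CPM (reads of a miRNA scaled to a common library total, with TMM factors). The TMM factors lay between 0.949 and 1.05. A floor of 3 counts corresponded to 0.610 to 1.53 CPM, which covers counting error only. The 5 neuronal miRNAs checked (miR-124-3p, miR-9a-5p, miR-128-3p, miR-137-3p and miR-138-5p) were present in every library, with a summed level of 30264.5 to 38459 CPM. Small RNA libraries hold no mRNA, so choroid plexus transcripts such as Ttr were not measured, and the cells that carried the 3 miRNAs are named from general knowledge and not from these counts.

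All 3 guides were detected in every library. Before scaling, rno-miR-204-5p had 29486 to 192272 counts per library (median 90451), rno-miR-211-5p had 5573 to 42833 (median 20393.5) and rno-miR-448-3p had 587 to 4762 (median 2327). The guide rno-miR-204-5p took 1.41% to 5.36% of a library and ranked between 5 and 17 by abundance among the 753 miRNAs. The guide rno-miR-211-5p took 0.269% to 1.23% and ranked between 17 and 49. The guide rno-miR-448-3p took 0.0283% to 0.136% and ranked between 71 and 130. A pair of sequences that differ at a single base may exchange reads. The counts of rno-miR-204-5p and rno-miR-211-5p were fractional as deposited in all 12 libraries, and those of rno-miR-448-3p in 3 libraries. Fractional counts arise where reads are divided among related miRNAs, and how that was done is not given in the sources used here. Per library, 80.2% to 83.4% of the 753 miRNAs had whole counts, absent miRNAs included.

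In the vehicle rats 9, 10, 19 and 20, rno-miR-204-5p was at 30189, 22937, 40429 and 39858 CPM. In the 8 ethanol rats it ranged from 13661.5 (rat 3) through a median of 31631 to 56439 (rat 8). Ethanol rats 3 and 15 lay below every vehicle rat, rats 8 and 16 lay above every vehicle rat, and the other 4 fell between, so the groups overlapped.

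The paralog rno-miR-211-5p was at 6456, 5577, 8864 and 9114 CPM in vehicle rats 9, 10, 19 and 20. Over the ethanol rats its lowest, median and highest levels were 2582, 7654 and 13010 CPM. Again rats 3 and 15 were the lowest and rats 8 and 16 the highest of the ethanol group.

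The Htr2c-hosted guide rno-miR-448-3p was at 751, 463, 973 and 1013 CPM in the same vehicle rats. Its ethanol levels ran from 272 (rat 3) through 759.6 to 1431 CPM (rat 8). Rats 3, 15 and 23 lay below the lowest vehicle rat and rats 8 and 16 above the highest.

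**Figure D1:**
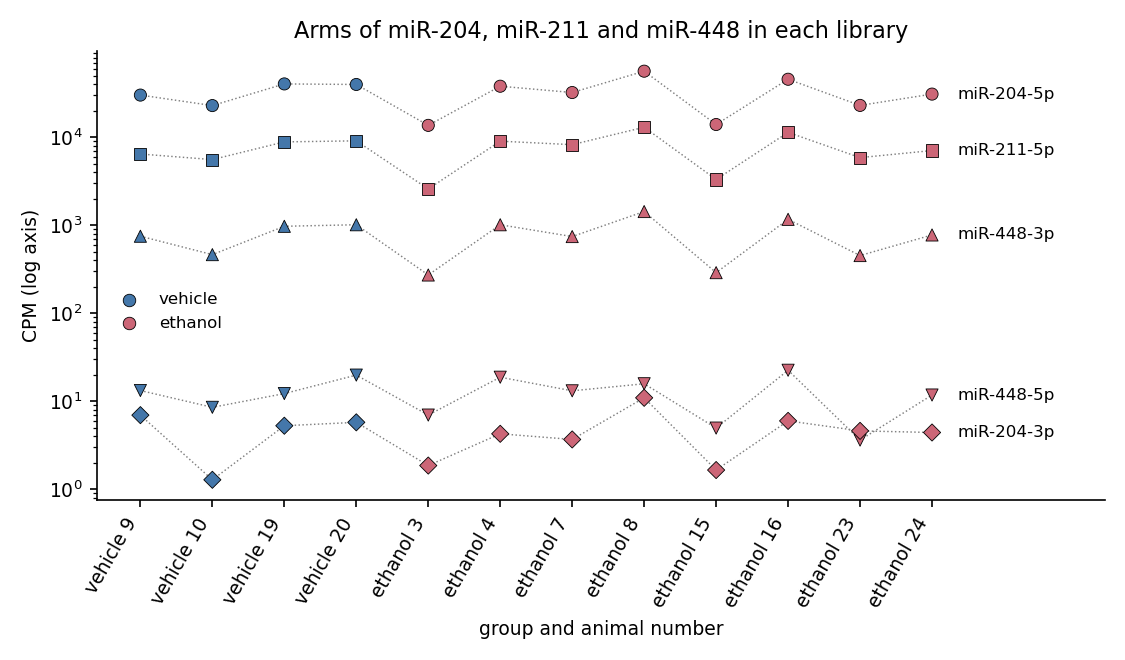
CPM (TMM-scaled, log axis) of 5 of the 6 arms in each of the 12 libraries, with 1 point per rat, blue for vehicle and red for ethanol, and dotted lines that only join the points of 1 arm (rno-miR-211-3p had 0 counts everywhere and is not drawn). The 3 guides went up and down together from rat to rat, with ethanol rats 3 and 15 lowest and ethanol rat 8 highest, whereas the levels of rno-miR-448-5p and rno-miR-204-3p crossed in ethanol rat 23.

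The order of levels was rno-miR-204-5p, rno-miR-211-5p, rno-miR-448-3p, rno-miR-448-5p, rno-miR-204-3p and rno-miR-211-3p. The mature miRNAs are 20 to 22 bases long, so no scaling for length was applied, but adapter ligation captures some sequences better than others. The ranges of the first 4 did not overlap between neighbours over the 12 libraries: the lowest rno-miR-204-5p level (13661.5 CPM) was above the highest rno-miR-211-5p level (13010 CPM), and the lowest rno-miR-211-5p level (2582 CPM) was above the highest rno-miR-448-3p level (1431 CPM). The levels of rno-miR-448-5p (3.61 to 22.5 CPM) and rno-miR-204-3p (1.28 to 10.9 CPM) did overlap.

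The passenger arms were rare, and their share of the counts differed between the 3 hairpins. The precursors are shown because they place the guide, with both arms in capitals. MiR-204 and miR-211 deliver the guide from the 5′ side of the hairpin and miR-448 from the 3′ side.
Mir204: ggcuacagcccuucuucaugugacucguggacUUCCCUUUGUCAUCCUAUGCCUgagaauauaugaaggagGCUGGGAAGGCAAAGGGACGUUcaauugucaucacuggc
Mir211: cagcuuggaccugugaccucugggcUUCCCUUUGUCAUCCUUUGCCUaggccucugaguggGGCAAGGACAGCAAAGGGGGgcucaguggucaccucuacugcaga
Mir448: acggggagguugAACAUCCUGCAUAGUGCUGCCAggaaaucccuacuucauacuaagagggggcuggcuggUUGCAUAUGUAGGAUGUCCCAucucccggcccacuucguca
Over the 12 libraries together, rno-miR-448-5p made up 467 of 29545 miR-448 counts, or 1.58% (exact 95% interval 1.44% to 1.73%). The arm rno-miR-204-3p made up 176 of 1202009 miR-204 counts, or 0.0146% (0.0126% to 0.0170%). The arm rno-miR-211-3p had 0 of 278791 miR-211 counts, which allows a share of up to 0.00132% (upper end of the exact 95% interval). Thus miR-448 kept a larger share of its passenger than miR-204, with intervals far apart, and the limit on rno-miR-211-3p lay below the interval of rno-miR-204-3p. These intervals and limits cover counting error only. At 20 bases, rno-miR-211-3p lies at the lower edge of the 20 to 30 nt size cut, and the part of that cut in its count was not tested.

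Within single libraries the passenger counts were small, from 11 to 93 for rno-miR-448-5p and from 3 to 27 for rno-miR-204-3p. The share of rno-miR-448-5p ran from 0.792% (exact interval 0.396% to 1.41%) in ethanol rat 23 to 2.49% (1.40% to 4.08%) in ethanol rat 3. In 10 of 12 libraries the interval held the pooled share, and ethanol rats 8 and 23 fell below it. For rno-miR-204-3p the share ran from 0.00557% (0.00115% to 0.0163%) in vehicle rat 10 to 0.0230% (0.0142% to 0.0351%) in vehicle rat 9, and the interval held the pooled share in 12 of 12 libraries. Differences between rats in the rno-miR-204-3p share were therefore not detectable at this depth.

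**Figure D2:**
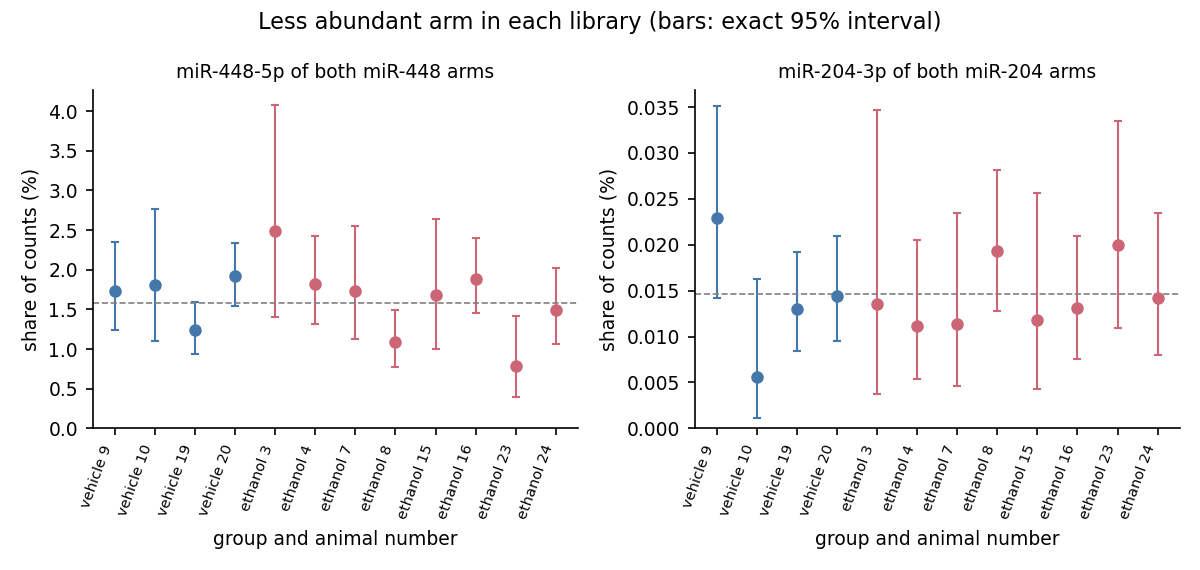
Share (%) of the less abundant arm in the counts of both arms for miR-448 (left) and miR-204 (right), per library, with bars for the exact 95% interval, colour for the group (blue vehicle, red ethanol) and a dashed line at the pooled share. For miR-448 the intervals of ethanol rats 8 and 23 lay below the line at 1.58%, and for miR-204 every interval crossed the line at 0.0146%.

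Between rats the 3 guides changed level a great deal while the ratios between them changed little. A ratio of 2 counts of the same library does not depend on how the library was scaled. The ratio of rno-miR-211-5p to rno-miR-204-5p was 21.4%, 24.3%, 21.9% and 22.9% in vehicle rats 9, 10, 19 and 20, and 18.9% (rat 3) to 25.5% (rat 7) over the ethanol rats, a 1.35-fold range. Over the same libraries rno-miR-204-5p itself had a 4.13-fold range and rno-miR-211-5p a 5.04-fold range. How reads were divided between these guides is not given in the sources used here, and its part in their ratio was not tested. The ratio of rno-miR-448-3p to rno-miR-204-5p lay between 1.96% (ethanol rat 23) and 2.66% (ethanol rat 4), a 1.36-fold range, against 5.26-fold for rno-miR-448-3p alone. The ratio of rno-miR-448-3p to rno-miR-211-5p lay between 7.70% (ethanol rat 23) and 11.6% (vehicle rat 9), a 1.51-fold range. The ratios still varied more than counting error. Their coefficients of variation were 8.11%, 11.0% and 13.0%, where counting alone would give 0.776%, 2.10% and 2.19%. For the passenger to guide ratios the coefficients were nearer to counting error, with 32.7% against 26.3% for miR-204 and 27.3% against 16.0% for miR-448.

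**Figure D3:**
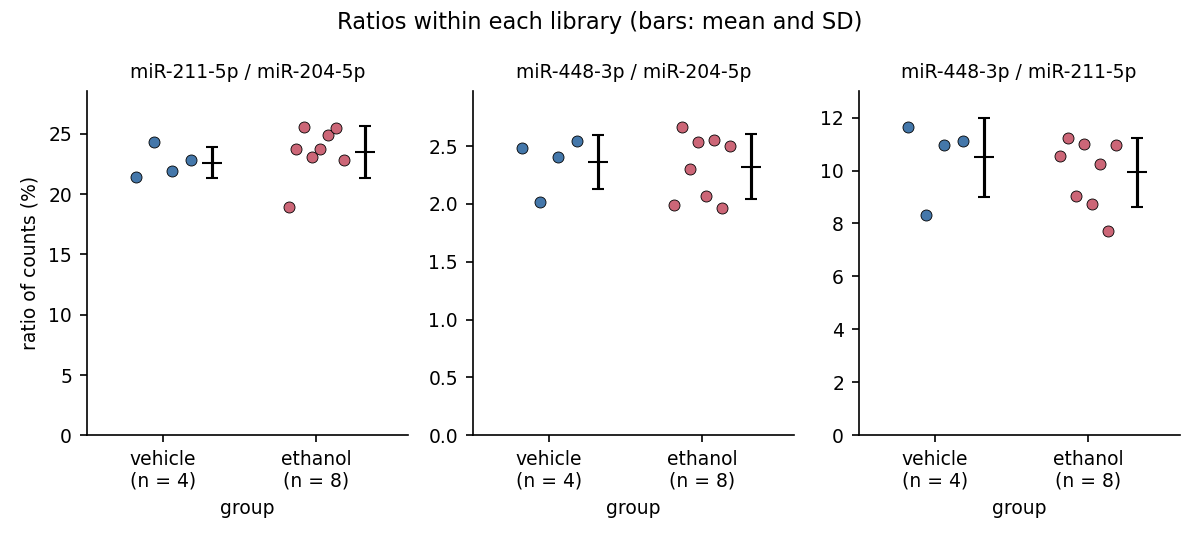
Ratio of counts (%) between pairs of guides within each library, with 1 point per rat in blue (vehicle, n = 4) and red (ethanol, n = 8) and with the mean and SD beside the points. The groups overlapped in all 3 ratios, the ratio of miR-211-5p to miR-204-5p was lowest in ethanol rat 3 (18.9%), and the ratio of miR-448-3p to miR-211-5p was lowest in ethanol rat 23 (7.70%).

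Across the 12 libraries the log2 CPM of rno-miR-204-5p and rno-miR-211-5p gave Pearson's r = 0.9855 (permutation p = 1e-05, the smallest that 100000 permutations can give, adjusted 2.71e-05 over 19 relations) and Spearman's rho = 0.979 (permutation p = 1e-05, adjusted 6.33e-05). For rno-miR-204-5p with rno-miR-448-3p, r was 0.993 (permutation p = 1e-05, adjusted 2.71e-05) and rho 0.951 (permutation p = 2e-05, adjusted 7.6e-05). For rno-miR-211-5p with rno-miR-448-3p, r was 0.971 and rho 0.972, with a permutation p = 1e-05 for both (adjusted 2.71e-05 and 6.33e-05). The 2 libraries farthest from the median, ethanol rats 3 and 15, did not carry these relations, since r was 0.977, 0.985 and 0.946 in the other 10 libraries. Within the 8 ethanol rats r was 0.989, 0.995 and 0.979. The 4 vehicle rats were too few for a correlation. The slope against rno-miR-204-5p on the log2 scale was 1.06 for rno-miR-211-5p and 1.21 for rno-miR-448-3p, so rno-miR-448-3p moved by more than rno-miR-204-5p. CPM of 1 library share its total and scaling factor. With library totals alone, which leaves out the factor but keeps the shared total, the same pairs gave r of 0.984, 0.993 and 0.970. The part of the shared total in these r was not tested. Rno-miR-204-5p showed no relation to the library total past the threshold (r = 0.206, permutation p = 0.519; rho = 0.203, permutation p = 0.529). The part of divided reads in the relation of rno-miR-204-5p to rno-miR-211-5p was not tested. In bulk tissue, fewer cells of a type and less RNA per cell cannot be told apart.

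The passengers followed their guides with more scatter. Rno-miR-204-3p and rno-miR-204-5p gave r = 0.8345 (permutation p = 0.00088, adjusted 0.00186) and rho = 0.734 (permutation p = 0.00879, adjusted 0.0186), and r was 0.734 without ethanol rats 3 and 15. Rno-miR-448-5p and rno-miR-448-3p gave r = 0.850 (permutation p = 0.00072, adjusted 0.00171) and rho = 0.874 (permutation p = 0.00038, adjusted 0.000903), and r was 0.837 without those rats.

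Compared with the other miRNAs of the hippocampus, the 3 guides varied widely between rats. The median ratio of highest to lowest CPM was 1.73 over the 420 miRNAs that passed the filter on low counts and 1.46 over the 184 of them with a mean of at least 100 CPM. Among those 184, rno-miR-448-3p ranked 12, rno-miR-211-5p 14 and rno-miR-204-5p 15. The biological coefficient of variation estimated by edgeR was 39.3% for rno-miR-204-5p, 41.3% for rno-miR-211-5p and 47.1% for rno-miR-448-3p, against a median of 16.1%. The whole span of each guide lay within the ethanol group, which has more rats. Within the ethanol libraries the 3 guides spanned 4.13-fold, 5.04-fold and 5.26-fold, and within the vehicle libraries 1.76-fold, 1.63-fold and 2.19-fold.

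The 5 other miRNAs whose log2 CPM was most like each guide were the same for all 3 guides: miR-1298, miR-34b-5p, miR-34c-5p, miR-34b-3p and miR-34c-3p. Because the guides correlated with each other at r of 0.971 to 0.993, this sharing is not a separate result. Likeness was measured by Pearson's r, and by Spearman's rho 4 of the 5 were shared for rno-miR-448-3p, with miR-764-3p (rho = 0.944) in place of miR-34c-5p (rho = 0.930). With rno-miR-448-3p, miR-1298 had r = 0.9975 over the 12 libraries, and with rno-miR-204-5p it had r = 0.993. The median r of rno-miR-204-5p with the 415 other retained miRNAs was -0.00081, and 7 of them were above 0.9. MiR-1298 is encoded beside miR-448 inside Htr2c, which holds 5 miRNA genes in RefSeq (Mir1298, Mir1912, Mir3552, Mir448 and Mir764). The miRNAs miR-34b and miR-34c, with miR-449, are known for their role in cells with many motile cilia, which include the ependyma lining the ventricles. No arm of miR-449a or miR-449c was among the 12 retained miRNAs most like any of the 3 guides by r. These correlations are descriptions over the same 12 libraries.

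The Htr2c miRNAs did not all keep a fixed ratio. The ratio of rno-miR-448-3p to miR-1298 stayed between 17.4% and 20.1% in all 12 libraries, a 1.15-fold range with a coefficient of variation of 4.53%, which was tighter than the ratio of rno-miR-448-3p to either of the other guides. The level of miR-1298 was 2379 to 5586 CPM in vehicle rats and 1394 to 7938 CPM in ethanol rats. In contrast, the ratio of miR-764-3p to miR-1298 ran from 2.39% in vehicle rat 19 to 4.92% in ethanol rat 3, a 2.06-fold range, and the log2 slope of miR-764-3p against rno-miR-448-3p was 0.65. MiR-764-5p had 1 to 21 counts, miR-1912-5p had 0 to 6 and miR-1912-3p had 0 in every library. The remaining one, miR-3552, which was chosen after its values were seen, stood at 3.11% to 5.70% of rno-miR-448-3p.

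The seed relative rno-miR-153-3p did not follow rno-miR-448-3p. Its r with rno-miR-448-3p was -0.785 over the 12 libraries, as a description. Over the 415 other retained miRNAs the median r with rno-miR-448-3p was -0.0056 and the lowest was -0.868, so miR-153-3p was not the lowest.

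**Figure D4:**
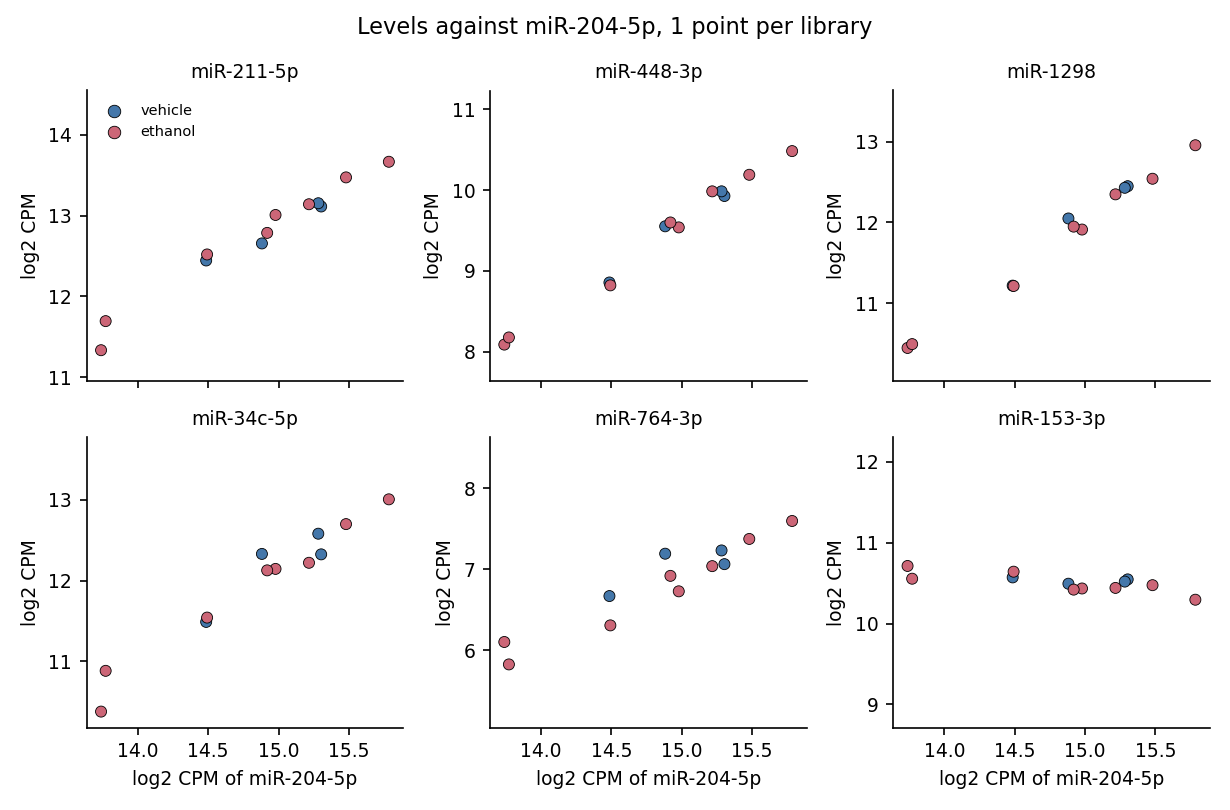
Log2 CPM of 6 miRNAs against log2 CPM of rno-miR-204-5p, with 1 point per library, blue for vehicle and red for ethanol, and with vertical axes of equal span. MiR-211-5p, miR-448-3p, miR-1298 and miR-34c-5p rose along a line with slopes of 1.06, 1.21, 1.27 and 1.17, miR-764-3p rose less steeply (0.79), and miR-153-3p did not rise.

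Markers of other cells were followed in the same libraries. The neuronal list, as a sum, spanned 1.27-fold and showed no relation to rno-miR-204-5p past the threshold over 12 libraries (r = -0.437, permutation p = 0.154, adjusted 0.2085; rho = -0.566, permutation p = 0.0594, adjusted 0.0941), although r was -0.768 without ethanol rats 3 and 15. MiR-9a-5p was the largest part of that sum, with a median of 24731 CPM in vehicle rats against 36296 CPM for the list. A smaller part, miR-137-3p, ran from 137 to 276 CPM over the ethanol rats. The ratio of rno-miR-204-5p to the neuronal miR-124-3p ranged from 392% in ethanol rat 3 to 2220% in ethanol rat 8, or 5.66-fold. Of the epithelial list (miR-200a-3p, miR-200b-3p, miR-200c-3p, miR-141-3p and miR-429), the summed level was 19.5 to 37.0 CPM in vehicle and 13.7 to 27.8 CPM in ethanol rats, and miR-141-3p alone passed the filter. MiR-141-3p was the largest part of that sum, with a median of 21.5 CPM in vehicle rats against 25.1 CPM for the list. Over the 12 libraries the sum rose with rno-miR-204-5p (r = 0.680, permutation p = 0.0146, adjusted 0.0277; rho = 0.685, permutation p = 0.0167, adjusted 0.0317; r = 0.5995 without ethanol rats 3 and 15). Within the 8 ethanol rats it did not pass the threshold (r = 0.690, permutation p = 0.0573; rho = 0.548, permutation p = 0.171). For the retina and pineal list (miR-183-5p, miR-96-5p and miR-182), r was 0.5395 over 12 libraries (permutation p = 0.0713, adjusted 0.115; rho = 0.5035, permutation p = 0.0982) and 0.852 without those rats. The lists for oligodendrocytes, vessels, blood, microglia and leukocytes, muscle, and fibroblasts and meninges gave r of -0.305, 0.278, 0.380, 0.276, 0.502 and 0.533, with adjusted permutation p of at least 0.115 for r. Their rho was -0.217, 0.224, 0.357, 0.308, 0.615 and 0.517, with adjusted permutation p of at least 0.0656. Without ethanol rats 3 and 15, r for these lists was -0.110, 0.573, 0.665, 0.666, 0.504 and 0.764. The part of these cell types in the level of the 3 guides was not tested.

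The study asked whether acute ethanol changes hippocampal miRNAs. None of the miR-204, miR-211 and miR-448 arms differed between the ethanol and vehicle rats by more than the spread between rats. Of the 6 arms, 5 passed the filter and were tested, and 0 of these had an adjusted p under 0.05 by edgeR's quasi-likelihood test, as did 0% of the 420 miRNAs tested. At an unadjusted p under 0.05 there were again 0 of 5, against 4.05% of the 420. DESeq2 also gave 0 of 5 at either threshold.

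Vehicle rats had 33353 ± 8384 CPM (SD, n = 4) of rno-miR-204-5p, and ethanol rats had 31768 ± 14947 CPM (SD, n = 8). The log2 fold change, ethanol over vehicle, was -0.07 (SE 0.34; edgeR adjusted p = 0.997), with a 95% interval from 0.569-fold to 1.59-fold. The two-sided exact permutation test of mean log2 CPM over all 495 assignments of the libraries gave p = 0.663, where the smallest possible value is 0.00202.

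For rno-miR-211-5p the vehicle level was 7503 ± 1756 CPM (SD, n = 4) and the ethanol level 7562.5 ± 3641 CPM (SD, n = 8). The log2 fold change was 0.01 (SE 0.36; edgeR adjusted p = 0.99973; exact permutation p = 0.770) and the interval ran from 0.585-fold to 1.74-fold. For rno-miR-448-3p the vehicle level was 800.1 ± 252 CPM (SD, n = 4) and the ethanol level 768 ± 420 CPM (SD, n = 8), with a log2 change of -0.06 (SE 0.41; edgeR adjusted p = 0.997; exact permutation p = 0.659) with an interval from 0.516-fold to 1.78-fold. The intervals of all 3 guides therefore hold changes of more than 1.5-fold in either direction, which 4 and 8 rats could not separate from no change.

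The passengers were as variable. Rno-miR-448-5p was at 13.2, 8.51, 12.2 and 19.8 CPM in vehicle rats 9, 10, 19 and 20 and at 3.61 to 22.5 CPM (median 12.4) in ethanol rats, with a log2 fold change of -0.19 (SE 0.41; edgeR adjusted p = 0.971). Rno-miR-204-3p was at 6.93, 1.28, 5.26 and 5.74 CPM in those vehicle rats and at 1.65 to 10.9 CPM (median 4.33) in ethanol rats, with a log2 fold change of -0.11 (SE 0.44; edgeR adjusted p = 0.997). Ethanol and vehicle rats overlapped for both. No group comparison is given for rno-miR-211-3p, which had 0 counts in every library.

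Ratios between members, which vary less than the levels, did not separate the groups either. The ratio of rno-miR-211-5p to rno-miR-204-5p averaged 22.6% ± 1.28 (SD, n = 4) after vehicle and 23.5% ± 2.14 (SD, n = 8) after ethanol, with an exact permutation p of 0.523. The ratio of rno-miR-448-3p to rno-miR-204-5p averaged 2.36% ± 0.236 (SD, n = 4) after vehicle and 2.32% ± 0.281 (SD, n = 8) after ethanol, with an exact permutation p = 0.814. The ratio of rno-miR-448-3p to rno-miR-211-5p averaged 10.5% ± 1.49 (SD, n = 4) after vehicle and 9.93% ± 1.29 (SD, n = 8) after ethanol, with an exact permutation p = 0.521. The passenger to guide ratio of miR-204 averaged 0.0140% ± 0.00714 (SD, n = 4) after vehicle and 0.0143% ± 0.00346 (SD, n = 8) after ethanol (exact permutation p = 0.598). That of miR-448 averaged 1.70% ± 0.309 (SD, n = 4) after vehicle and 1.65% ± 0.534 (SD, n = 8) after ethanol, with an exact permutation p of 0.758. After adjustment over these 5 ratios the permutation p was 0.814 for each.

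The miRNAs nearest to the 3 guides did not pass the test either. The list of other Htr2c miRNAs held 5 arms (of miR-1298, miR-764 and miR-1912), of which 3 were tested and 0 passed, at a median log2 fold change of -0.21. MiR-3552, which is not in that list, was at -0.14 and did not pass either. The summed level of the 5 arms was 2484 to 5722 CPM in vehicle rats and 1463 to 8138 CPM in ethanol rats. Of the 8 arms in the ciliated cell list (miR-34b, miR-34c, miR-449a and miR-449c), 6 were tested and 0 passed, at a median of -0.18, and miR-449a-3p and miR-449c-3p were at 0 in every library. Their sum was 4361 to 8932 CPM in vehicle and 1960 to 12127 CPM in ethanol rats. The median over all 420 miRNAs was -0.02. The muscle list moved most with the group, with a median summed level of 1655 CPM in vehicle and 200.4 CPM in ethanol rats, and 1 of its 3 tested miRNAs had an unadjusted p under 0.05 (miR-133a-3p, edgeR adjusted p = 0.971). Its part in the comparison of the 3 guides was not tested. Which library belonged to which sequencing set is not given in the labels, so set and group cannot be told apart.

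**Figure D5:**
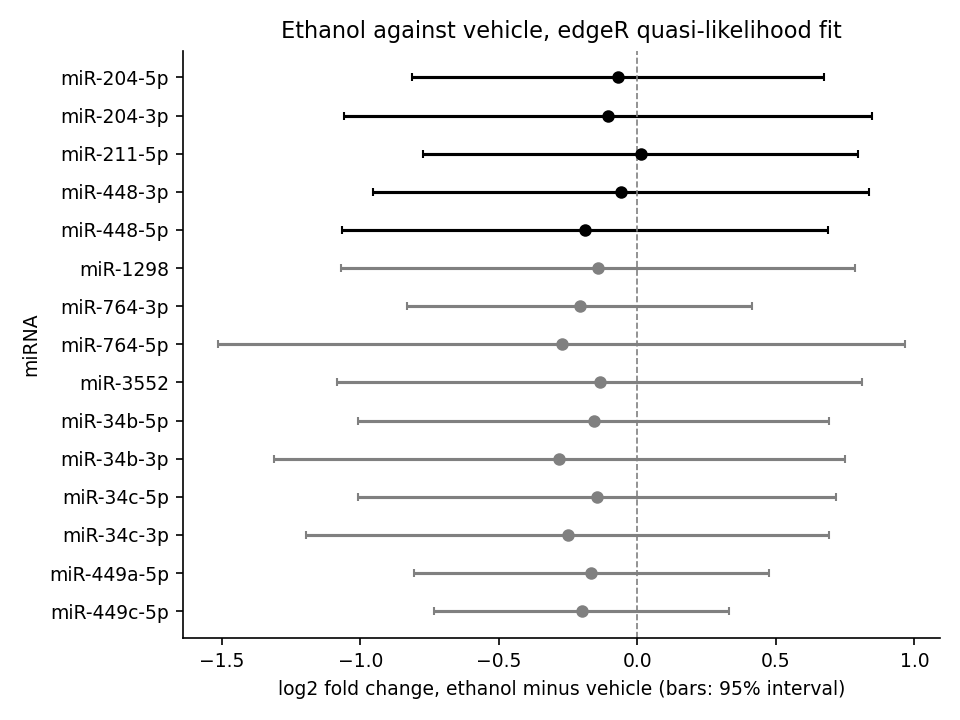
Log2 fold change (ethanol over vehicle, edgeR) with its 95% interval for the 5 tested arms of miR-204, miR-211 and miR-448 (black) and for 10 related miRNAs, the listed Htr2c and ciliated cell miRNAs that were tested and miR-3552 (grey). Every interval crossed 0, and the 5 black points lay between -0.19 and 0.01.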

How the data were processed

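For each rat the authors deposited expected counts (estimated counts) of 753 mature miRNAs, not scaled to library size. Per the labels, cutadapt and Partek were used with build rn5. The counting tool and miRNA annotation are not given in the sources used here. Per the study's methods, 1 µg of total RNA was gel-purified at 20 to 30 nt and read for 37 cycles. Expected counts were rounded, and a miRNA under 10 reads in at least 10 libraries was left out (420 retained). Ethanol and vehicle were compared by edgeR's quasi-likelihood test (R 4.3.3, edgeR 4.0.16) with TMM factors and Benjamini-Hochberg adjustment, with limma 3.58.1 and DESeq2 1.42.0 as alternatives. Log2 CPM used a prior count of 2 and log2 ratios a pseudocount of 0.5. Exact permutation tests used scipy 1.17.1. Correlations and their permutation tests used numpy 2.4.6 with ranks from scipy, and intervals are Clopper-Pearson. The 66 pairs of libraries all differed beyond sampling noise (lowest chi-square over degrees of freedom 38.5). The fit was also run on counts simulated independently for each miRNA, and its outcome is not used here. Named miRNAs were the 6 members, the Htr2c and ciliated lists, the 5 miRNAs most correlated with each guide and seed relatives. Members and lists were chosen with earlier results of these data known, and miR-153-3p and miR-3552 were added after their values were seen. The design foresaw 6 ratios, of which that of rno-miR-211-3p was not tested. MiR-1264 and miR-1911 were not analysed here.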

Additional observations from a re-analysis of the deposited data

Results flagged for a closer look

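Each group of 4 or 8 rats was examined for a single rat that stood apart from the rest of its group (Dixon's test at 95%), over 20 groups of values, of which 1 would be marked by chance, and 2 were marked. The log2 ratio of miR-211-5p to miR-204-5p was -2.40 in ethanol rat 3, where the other 7 ethanol rats lay between -2.13 and -1.97. The log2 ratio of miR-448-3p to miR-211-5p was -3.59 in vehicle rat 10, where the other 3 vehicle rats lay between -3.19 and -3.10, a gap of 0.8294 of the range that only just passed the critical value. Ethanol rat 3 was also the library with the lowest level of all 3 guides, and vehicle rat 10 was the lowest vehicle rat for each of them.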

How the results depend on the processing

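In 22 alternative fits (other scaling, filters and tests, the library total as a covariate, unrounded counts and each rat left out in turn), 0 tested arms had an adjusted or an unadjusted p under 0.05. The fold changes were close to 0 and their sign was not stable. With the library total as a covariate the log2 fold change was 0.074 for miR-204-5p, 0.076 for miR-204-3p and 0.14 for miR-448-3p. For miR-211-5p it was -0.037 with library totals alone and -0.14 with limma-trend and as the difference of mean log2 CPM used in the permutation test. With 1 rat left out it ranged from -0.24 to 0.082 for miR-204-5p, -0.40 to 0.075 for miR-204-3p, -0.15 to 0.18 for miR-211-5p, -0.25 to 0.11 for miR-448-3p and -0.39 to 0.11 for miR-448-5p. The log2 difference of the ratios ranged from 0.03 to 0.10 for miR-211-5p to miR-204-5p, -0.10 to 0.0078 for miR-448-3p to miR-204-5p, -0.19 to -0.03 for miR-448-3p to miR-211-5p, -0.17 (without vehicle rat 10) to 0.45 for the miR-204 arms and -0.23 to 0.049 (without ethanol rat 23) for the miR-448 arms. The cause was not tested. MiR-204-3p was not tested where 10 reads in 10 libraries were required. The 5 correlations between arms kept their sign and their side of the threshold in the 3 alternatives run for each. On library totals alone the 3 guides spanned 3.79-fold, 4.59-fold and 4.79-fold. The rank of that span over all 420 miRNAs was 49 for miR-204-5p, 36 for miR-211-5p and 33 for miR-448-3p, and the rank among the 184 at 100 CPM or more was chosen after the data were seen. No paired analysis was possible because the groups share no replicate numbers. Depth limits the passenger arms most, with 3 to 27 counts of miR-204-3p per library.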
